A study of Mus musculus with 6 samples.

Results

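Myelin is the membrane that oligodendrocytes wrap around axons, and the transcripts of 9 myelin genes were followed across brain regions and 3 ages in mouse. The genes are a list of names that was set with earlier results of these data known: Mbp, Mobp, Mag, Mog, Cnp, Mal, Opalin, Cldn11 and Ugt8a, 9 of 32285 genes in the count matrices. All 9 were detected in every section and passed the filter on low counts in every region. RNA was captured on 6 coronal brain sections with Visium, a slide whose barcoded spots bind the RNA of the tissue above them, and each molecule bears a unique molecular identifier (UMI) so that it is counted once. The donors were male mice of the inbred strain C57BL/6J, for which the labels give no added allele or treatment, aged 6 months (young), 18 months (middle) and 21 months (old), with 2 males per age. Frozen brains were cut at 16 µm near Bregma -1.655 mm. Middle 2 and old 2 were on slide 2 and all other sections on slide 1, so no young section was on slide 2.

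Oligodendrocytes build myelin by stacking sheets of their own membrane, which are held together on the cytoplasmic side by basic proteins and on the outer side by proteolipids and adhesion proteins. The membrane is rich in galactolipids, is sealed at its edges by tight junctions and keeps narrow channels of cytoplasm that supply the wraps. White matter tracts are packed with myelinated axons, while grey matter holds fewer of them among nerve cell bodies. Myelin genes are expressed by mature oligodendrocytes, and some of their messengers, Mbp above all, travel into the cell processes. In sums over spots, fewer oligodendrocytes and less RNA per oligodendrocyte cannot be told apart.

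The sections held 60938938 to 77557934 UMIs over 2573 to 2973 spots, and median UMIs per spot were 20370 to 30093. Levels are given as CPM, which is how many of every 1000000 UMIs in a set of spots came from a gene. Spots were clustered on other genes, without the myelin genes, and clusters were named from fixed markers, which gave 10 regions. White matter was 1 cluster of 222 to 307 spots per section. Its 12 naming markers, such as Trf, Apod and Ppp1r14a, summed to 18524 and 18936 CPM in young and 16385 and 16411 CPM in middle white matter. In old white matter the sums were 19112 and 19651 CPM, and in grey matter they were 1600 to 2017 CPM. The same markers gave the cluster its name, so this gap describes the cluster and does not test the name. C4b, an immune gene, led that cluster together with Trf. White matter took 10.4% and 10.9% of spots in young, 8.67% and 7.93% in middle and 9.32% and 9.80% in old animals. Both young sections thus had the larger shares, and an exact permutation test over 90 assignments of ages gave p = 0.0667, the smallest p the design allows.

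The 9 genes together made up 2.96% to 3.83% of all UMIs in white matter and 0.300% to 0.363% in grey matter, where grey matter is the sum of 7 named regions. White matter held 24.3% to 35.1% of all UMIs of the 9 genes, and no difference by age was shown for that share (exact permutation p = 0.467). Within white matter the summed share varied from spot to spot: in young 1 the 10th percentile of spots was 2.49%, the median 3.92% and the 90th percentile 4.82%. Grey matter spots of the same section ran from 0.0785% at the 10th to 0.936% at the 90th percentile. These differences between regions are described and not tested.

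**Figure D1:**
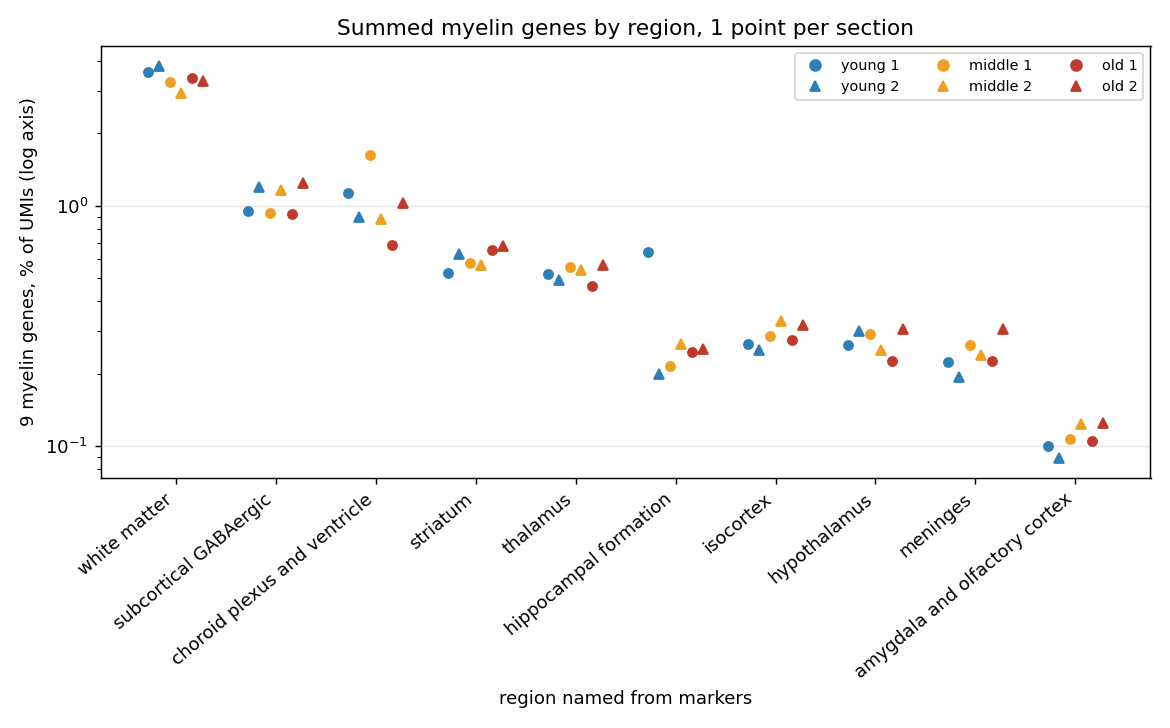
Summed UMIs of the 9 myelin genes as a percent of all UMIs (log axis) in each of the 10 regions, with 1 point per section and colour for age. White matter lies highest in every section, between 2.96% and 3.83%, and the amygdala and olfactory cortex lowest, between 0.0892% and 0.125%.

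Below white matter came the subcortical GABAergic cluster (0.921% to 1.25% of UMIs) and the choroid plexus and ventricle cluster (0.684% to 1.63%), which overlapped. Striatum (0.524% to 0.681%) and thalamus (0.466% to 0.565%) followed and overlapped as well. Isocortex (0.251% to 0.332%), hypothalamus (0.226% to 0.306%) and meninges (0.193% to 0.306%) could not be ordered, and the amygdala and olfactory cortex lay below all of them. Hippocampal formation was 0.200% to 0.266% in 5 sections but 0.644% in young 1, where it held 63 spots against 174 to 278 in the others. Its clusters led by C1ql2 and by Spink8 had too few spots in young 1 for a value there. The 2 young sections also differed in thalamus (285 and 506 spots) and hypothalamus (343 and 217 spots). The regional make-up of the young sections thus differed, and its part in the comparisons of ages was not tested. Isocortex was made of 6 clusters. The highest, with Ccn2 and Cplx3, genes of the deepest cortical layer, among its leading genes, averaged 5543 CPM of the 9 genes over the 6 sections (4960 to 6057). The cluster led by Ccn2 itself averaged 2991 CPM (2464 to 3374). The cluster led by Fezf2, a gene of deep layers, averaged 2926 CPM (2610 to 3236). Another with Fezf2 further down its leading genes averaged 1104 CPM (982 to 1285), and the cluster led by Vip and Ndnf 1440 CPM (1144 to 1846). These layer genes therefore do not order the clusters. The lowest, with Lamp5, a gene of upper layers, among its leading genes, averaged 989 CPM (820 to 1217).

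White matter ranked highest and the amygdala and olfactory cortex lowest of the 10 regions for each of the 9 genes, but the size of the drop from white matter differed between genes. Averaged over sections, Mbp was 10.5-fold higher in white matter than in isocortex, Mobp 12.6-fold, Opalin 13.4-fold, Ugt8a 13.5-fold, Cnp 14.1-fold, Mag 15.1-fold, Mal 15.7-fold, Mog 16.2-fold and Cldn11 16.5-fold. In white matter every gene was found in 92.4% to 100% of spots of a section. In grey matter Mbp was found in 99.8% to 100% of spots and Ugt8a, which codes for the enzyme that adds galactose to ceramide, in 47.9% to 62.5%. Median UMIs per spot were 9569 to 14528 in white and 22023 to 33225.5 in grey matter, and these shares of spots were not set to a common depth.

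In whole sections no myelin gene passed the test at any pair of ages. The test was edgeR's quasi-likelihood test on section sums, with p adjusted over all genes tested. Of all genes, 0.164% were called between old and young, 0.0679% between middle and young and 0% between old and middle. Mbp was 3025 and 2776 CPM in young, 3146 and 3007 CPM in middle and 2858 and 3352 CPM in old sections, with overlap between all ages. Mal came nearest in old against young, at 294 and 282 CPM in young, 251 and 228 CPM in middle and 226 and 272 CPM in old sections. Its log2 fold change in old against young was -0.26 (SE 0.10, edgeR adjusted p = 0.361). At an unadjusted p under 0.05, edgeR gave 1 of 9 genes in old against young (Mal) and 2 of 9 in middle against young (Mal and Cldn11). Of all 17673 genes tested, 2246 in old and 1382 in middle against young had such a p. DESeq2 called none of the 9 either.

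Within white matter most of the 9 genes fell from young to middle sections, and Mal and Ugt8a also fell from young to old ones. Of all genes tested there, 3.38% were called in middle against young, 2.33% in old against young and 0.431% in old against middle. Of the 9 genes, 7 fell in middle against young (Mal, Cldn11, Mog, Ugt8a, Cnp, Opalin and Mag) and 2 fell in old against young (Mal and Ugt8a). In old against middle 0 were called, and DESeq2 called none. There 3 of 9 (Cldn11, Mag and Opalin) had an unadjusted edgeR p under 0.05, as did 1179 of all 12530 genes tested. The median log2 fold change of the 9 was -0.43 in middle and -0.25 in old against young, beside 0.00 over all genes in both. Both comparisons use the same 2 young sections. Where young sections are said not to overlap with the others, this describes the gene named. The share of all genes with such an order is not given here.

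**Figure D2:**
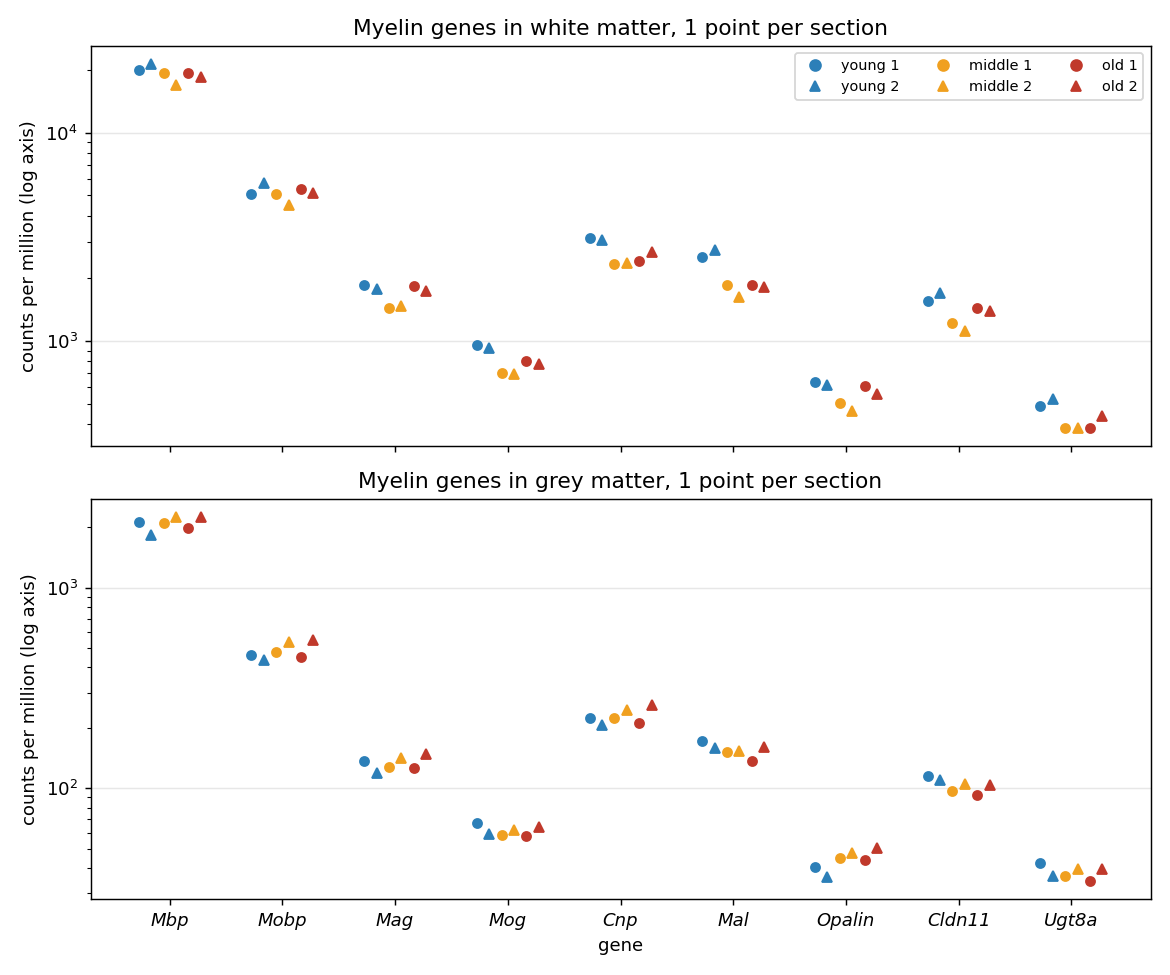
Level of each myelin gene in CPM (log axis) in white matter (top) and in grey matter (bottom), with 1 point per section and colour for age. In white matter the 2 young sections lie above the 4 middle and old sections for Mbp, Mog, Cnp, Mal, Opalin, Cldn11 and Ugt8a. Mbp did not pass the test, and the share of all genes with that order is not given here.

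Mal, a proteolipid that sorts lipid-rich membrane, had the largest fold change of the 9 in white matter. The gene lies at chr2:127633226-127656695 (GRCm38, minus strand). White matter levels were 2535 and 2718 CPM in young, 1852 and 1630 CPM in middle and 1866 and 1815 CPM in old sections. The young sections do not overlap with the others, and middle and old sections lie together. Young sections averaged 2626 ± 129 CPM and old ones 1840 ± 36.6 CPM (SD, n = 2 each). For old against young the log2 fold change was -0.57 (SE 0.11, edgeR adjusted p = 0.00213). In middle against young it was -0.63 (SE 0.11, edgeR adjusted p = 0.00130).

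Ugt8a (chr3:125865271-125938619, minus strand) makes galactosylceramide, a main lipid of myelin. Its white matter levels were 486 and 529 CPM in young, 381 and 383 CPM in middle and 382 and 437 CPM in old sections. All 4 middle and old sections lie below both young sections. The log2 fold change was -0.36 in old (SE 0.10, edgeR adjusted p = 0.0399) and -0.44 in middle against young (SE 0.10, edgeR adjusted p = 0.00911).

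Cldn11 (chr3:31149920-31164324, plus strand) codes for the claudin of myelin's tight junctions. It was 1550 and 1690 CPM in young, 1217 and 1120 CPM in middle and 1439 and 1397 CPM in old sections. It was thus lowest in middle sections, where the log2 fold change against young was -0.51 (SE 0.10, edgeR adjusted p = 0.00495), and in old against young the value was -0.25 (edgeR adjusted p = 0.258).

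The adhesion proteins sit on both faces of the sheath. Mog (chr17:37010743-37023398, minus strand), an immunoglobulin-type protein of the outermost surface, was 952 and 929 CPM in young, 701 and 691 CPM in middle and 802 and 773 CPM in old sections. Its log2 fold change was -0.47 in middle (edgeR adjusted p = 0.00553) and -0.31 in old against young (edgeR adjusted p = 0.0881). Mag (chr7:30899176-30914873, minus strand), which faces the axon, was 1857 and 1772 CPM in young, 1443 and 1466 CPM in middle and 1831 and 1731 CPM in old sections. Young and old sections overlap for Mag, and the log2 fold change was -0.36 in middle (edgeR adjusted p = 0.0481) and -0.08 in old against young (edgeR adjusted p = 0.803).

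Cnp (chr11:100574904-100591729, plus strand), the cyclic nucleotide phosphodiesterase of the cytoplasmic channels, was 3111 and 3059 CPM in young, 2340 and 2371 CPM in middle and 2430 and 2678 CPM in old sections. The young sections lie above all others. Its log2 fold change was -0.43 in middle (edgeR adjusted p = 0.0203) and -0.33 in old against young (edgeR adjusted p = 0.105). Dnajc7 overlaps the end of Cnp on the other strand, and use of strand in counting is not given in the sources used here, so their reads cannot be told apart. Opalin (chr19:41061710-41077113, minus strand), a membrane glycoprotein of oligodendrocytes, was 635 and 614 CPM in young, 506 and 460 CPM in middle and 606 and 555 CPM in old sections. It fell in middle against young (log2 fold change -0.41, edgeR adjusted p = 0.0201) and was -0.16 in old against young (edgeR adjusted p = 0.527).

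The basic proteins of compact myelin were the 2 genes that did not pass the test in white matter. Mbp was 19875 and 21301 CPM in young, 19247 and 16969 CPM in middle and 19329 and 18407 CPM in old sections. Mobp (chr9:120149707-120181484, plus strand) was 5066 and 5734 CPM in young, 5071 and 4471 CPM in middle and 5384 and 5157 CPM in old sections. Mobp groups overlap, and its log2 fold change was -0.21 in middle (edgeR adjusted p = 0.378) and -0.09 in old against young (edgeR adjusted p = 0.813). For Mbp these were -0.22 (edgeR adjusted p = 0.402) and -0.18 (edgeR adjusted p = 0.586).

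Markers of other cell types differed between ages in the same spots, and their part in the result was not tested beyond what follows. Neuron markers (8 genes, such as Snap25 and Stmn2) summed to 931 and 917 CPM in young, 1300 and 1630 CPM in middle and 1112 and 1071 CPM in old white matter, and 5 of 8 rose in middle against young. Microglia markers (12 genes) summed to 6168 and 7155 CPM in young, 7817 and 8887 CPM in middle and 10121 and 10602 CPM in old white matter, and 5 of 12 rose in middle and 9 of 12 in old against young. Astrocyte markers (9 genes) summed to 3274 to 3561 CPM in young and middle and 4076 and 4674 CPM in old white matter. Peripheral myelin genes summed to 180 to 262 CPM, with Pmp2, a defining gene of Schwann cell myelin, at 0 in every white matter sum, and Pmp22, 1 of the 2 that could be tested, rose in old against young (log2 fold change 0.35, edgeR adjusted p = 0.0477). No marker of the other lists was at 0.

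Because neuron markers were highest in middle white matter, the tests were repeated on white matter spots with a neuron share at or below the median of all such spots, an alternative chosen after these values were seen. It kept 161 and 187 spots in young, 89 and 77 in middle and 132 and 150 in old sections, with neuron markers at 352 to 464 CPM. There 1 of 9 genes, Mal, fell in middle against young (log2 fold change -0.49, edgeR adjusted p = 0.0469), and Mal and Ugt8a fell in old against young (-0.68, edgeR adjusted p = 0.000236, and -0.41, edgeR adjusted p = 0.0274). In those spots Mal was 3095 and 3204 CPM in young, 2303 and 2150 CPM in middle and 2110 and 2006 CPM in old sections. The other middle against young values lay between -0.34 for Mog and -0.02 for Mobp. Fewer spots entered this fit, 10576 genes were tested and 46 were called in middle against young, against 423 of 12530 in all white matter spots. The calls over all genes in old against young in those spots are not given here.

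Single sections also bear on these counts. Without middle 2, 0 of 9 genes were called in middle against young, where 26 of 13000 genes were called in all, and without young 1 the count was 4, with 310 of 13003 in all. Without old 2, 0 of 9 were called in old against young, with 119 of 12866 in all, and without young 2, middle 1 or old 1 it was 1, Mal. On slide 1 alone, where 1 middle and 1 old section stand against the 2 young sections and are taken to vary as those do, 0 of 9 were called, and Mal was -0.52 in middle and -0.54 in old against young (edgeR adjusted p = 0.0867 and 0.0616). Of 12733 genes 94 were called in middle and 122 in old against young on that slide. When slide entered as a block, 4 of 9 were called in middle and 1 of 9, Mal, in old against young, beside 175 and 149 of 12530 genes. DESeq2 also called Mal alone in old against young.

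**Figure D3:**
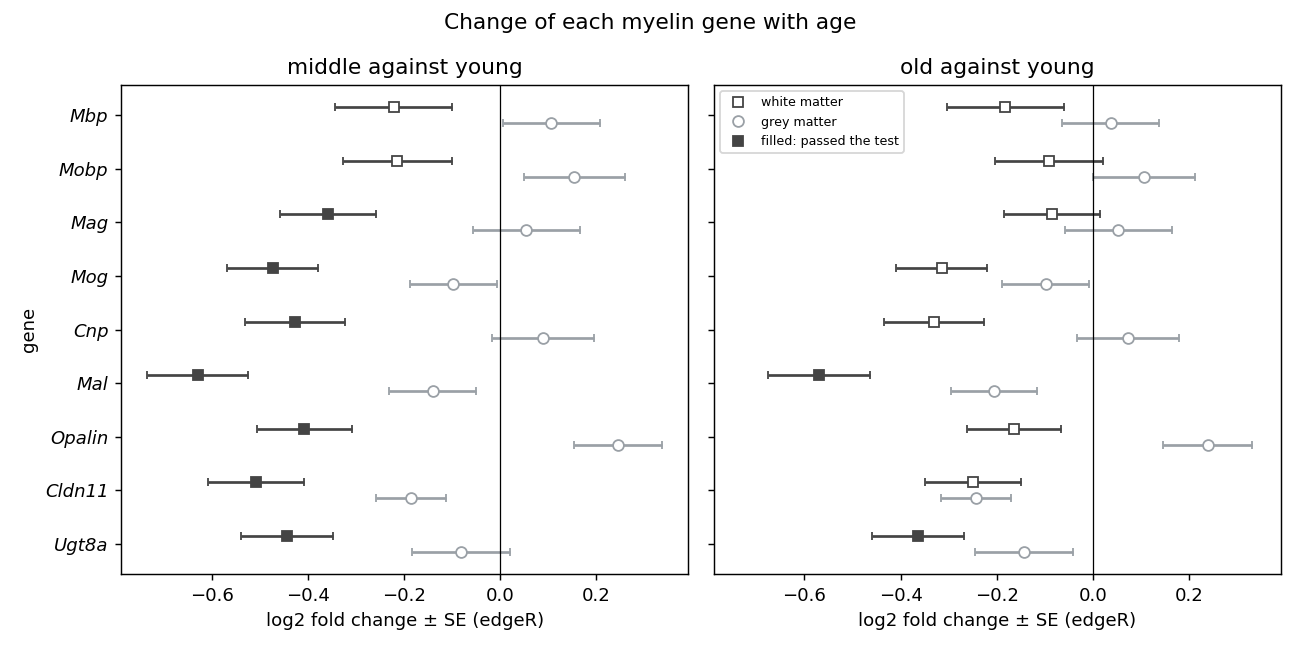
Log2 fold change from edgeR (horizontal axis) of each myelin gene in white matter (squares) and grey matter (circles), for middle against young (left) and old against young (right). Bars are standard errors worked back from the F statistic of the edgeR test. Filled symbols passed the test: 7 squares on the left, 2 on the right (Mal and Ugt8a), and no circle.

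In grey matter no myelin gene passed the test. Of all genes, 0.0759% were called there in old against young, 0.035% in middle against young and 0% in old against middle. At an unadjusted edgeR p under 0.05 there were 2 of 9 genes in each comparison with young, Cldn11 and Opalin. Of all 17133 genes tested, 1872 in old and 1312 in middle against young had such a p. With DESeq2 no gene of the 9 was called. The 9 genes split in direction: their median log2 fold change was 0.04 in old and 0.05 in middle against young, and 4 of 9 were below 0 in each. Opalin was 40.7 and 36.1 CPM in young, 45.0 and 47.6 CPM in middle and 43.8 and 50.3 CPM in old grey matter. Both young sections lie below the 4 others, and the log2 fold change was 0.24 for old against young (SE 0.09, edgeR adjusted p = 0.433). Cldn11 ran the other way, at 115 and 110 CPM in young, 96.6 and 104 CPM in middle and 92.8 and 104 CPM in old grey matter (log2 fold change -0.24 in old against young, SE 0.07, edgeR adjusted p = 0.363).

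Isocortex was the region outside white matter with a called myelin gene. Opalin rose there in old (log2 fold change 0.41, SE 0.08, edgeR adjusted p = 0.0414) and in middle against young (0.42, SE 0.08, edgeR adjusted p = 0.0373). Its levels were 35.0 and 32.9 CPM in young, 43.3 and 48.7 CPM in middle and 43.5 and 49.4 CPM in old isocortex, and the young sections do not overlap with the rest. The share of all genes called in isocortex was 0.272% in old and 0.233% in middle against young. With 9 genes, any 1 call exceeds such a share, so the comparison does not set the list apart. Mbp was 1708 and 1561 CPM in young, 1848 and 2133 CPM in middle and 1769 and 1993 CPM in old isocortex, also without overlap, but did not pass the test (log2 fold change 0.26 in middle, edgeR adjusted p = 0.293, and 0.17 in old against young, edgeR adjusted p = 0.444). When slide entered as a block, 0 of the 9 genes were called in any single region outside white matter. In isocortex 28 of 15442 genes were then called in old and 23 in middle against young. DESeq2 called Opalin in old and not in middle isocortex. On slide 1 alone Opalin was 0.35 in middle and 0.32 in old against young, and not called (edgeR adjusted p = 0.377 and 0.499). In the 8 other single regions together 0 of 72 tests of a myelin gene passed in either comparison with young, beside 0.102% of all tests in old and 0.0913% in middle against young. Hippocampal formation had the lowest values (median log2 fold change of the 9 genes -0.75 in both), where young 1 held 63 spots. The call of Opalin in isocortex was lost without young 1, young 2 or old 2 in old against young, and without young 2, middle 1 or middle 2 in middle against young. Its log2 fold change stayed between 0.32 and 0.51 in old and between 0.31 and 0.48 in middle against young over 19 alternatives each. Other pairs of gene and region were called in some of the fits with 1 section left out, each of which leaves 1 section at an age.

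The change in white matter was set against the change in grey matter of the same sections, with section as a block. In middle against young 6 of 9 genes (Opalin, Cnp, Mal, Mag, Mog and Ugt8a) had a lower change in white than in grey matter, beside 3.74% of all genes called in either direction. Opalin differed most, with -0.63 on the log2 scale (SE 0.10, edgeR adjusted p = 0.00163), from -0.41 in white and 0.24 in grey matter. In old against young only Cnp passed (difference -0.40, SE 0.09, edgeR adjusted p = 0.0129), beside 1.21% of all genes, and Opalin was at -0.40 (SE 0.10, edgeR adjusted p = 0.0675). Neuron markers moved with this result: 5 of 8 had a higher change in white than in grey matter in middle against young. Of the 12 markers that named white matter, 10 had a lower change in white than in grey matter in middle and 3 in old against young, and 0 had a higher one. Within white matter 3 of these 12 fell in middle and 0 in old against young. The part of either set in the result was not tested. In white matter spots with fewer neuron marker UMIs, 0 of 9 genes passed in middle against young, where 14 of 10575 genes were called against 469 of 12529 with all white matter spots. The difference of Opalin there was -0.54 (edgeR adjusted p = 0.0686), that of Cnp -0.36 and that of Mal -0.34. In old against young 3 of 9 passed in those spots (Cnp, Mal and Opalin). The calls over all genes in that comparison are not given here, so the count is not set against them. Some calls were lost with 1 section left out, which leaves 1 section at an age. Over 17 alternatives, these fits among them, the difference in middle against young lay between -0.79 and -0.53 for Opalin. That of Cnp lay between -0.61 and -0.36 in middle and between -0.49 and -0.31 in old against young. On slide 1 alone 0 of 9 passed in either comparison, but of 12731 genes only 8 were called in old and 1 in middle against young. With limma on differences within sections 0 of all 12529 genes were called, so neither fit sets the 9 genes apart from the rest.

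The make-up of the myelin transcripts was read as the share of each gene in the UMIs of the 9 genes, in which a change common to all 9 cancels. Mal took 7.03% and 7.09% of the sum in young, 5.65% and 5.52% in middle and 5.48% and 5.51% in old white matter. The means were 7.06 ± 0.0419% in young, 5.58 ± 0.0971% in middle and 5.49 ± 0.0208% in old (SD, n = 2). An exact permutation test over the 6 sections gave p = 0.0667, the smallest the design can give, and 0.120 after adjustment over the 9 genes, so no share can pass 0.05 here. In grey matter Mal took 5.08% and 5.26% in young, 4.55% and 4.29% in middle and 4.37% and 4.42% in old sections (exact permutation p = 0.200). In each of the 10 regions the share of Mal in both young sections was above that in all 4 middle and old sections, although the regions share the same sections and are not independent. In white matter spots with fewer neuron marker UMIs the share of Mal was 7.27% and 7.36% in young, 5.66% and 5.61% in middle and 5.37% and 5.50% in old sections, so the gap was as large there.

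**Figure D4:**
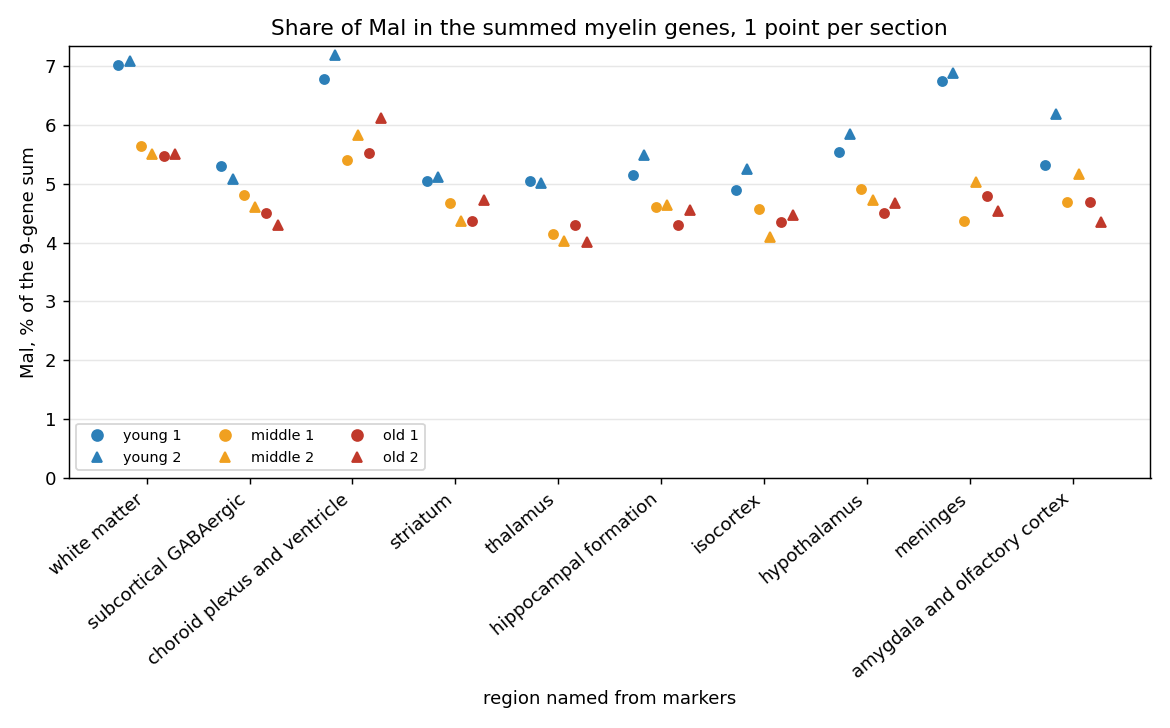
Share of Mal in the summed UMIs of the 9 myelin genes (vertical axis, percent, from 0) by region, with 1 point per section and colour for age. In each of the 10 regions both young sections lie above the 4 middle and old sections.

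Mbp and Mobp had lower shares in both young sections than in the 4 others in white matter. Mbp took 55.1% and 55.6% of the sum in young, 58.8% and 57.4% in middle and 56.7% and 55.9% in old sections (exact permutation p = 0.0667, adjusted p = 0.120). Mobp took 14.0% and 15.0% of the sum in young, 15.5% and 15.1% in middle and 15.8% and 15.7% in old sections (exact permutation p = 0.0667, adjusted p = 0.120). Young sections had the lower share of Mobp in 4 of 10 regions and in no region the higher one. For Cldn11, the shares were 4.30% and 4.41% in young, 3.71% and 3.79% in middle and 4.22% and 4.24% in old white matter. In grey matter it was 3.38% and 3.67% in young, 2.90% and 2.92% in middle and 2.97% and 2.86% in old sections, so the old sections lay near young in white matter and near middle in grey matter. The share of Cldn11 was higher in both young sections than in all others in 6 of 10 regions.

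Opalin had its lowest share in young grey matter, at 1.199% and 1.204%, against 1.35% and 1.33% in middle and 1.40% and 1.39% in old sections (exact permutation p = 0.0667, adjusted p = 0.300). In white matter it showed no such order, at 1.76% and 1.60% in young, 1.54% and 1.56% in middle and 1.78% and 1.68% in old sections. Ugt8a took 1.24% and 1.22% of the sum in young grey matter and 1.09% to 1.10% in the 4 other sections (exact permutation p = 0.133). Mog was 1.98% and 1.97% in young, 1.75% and 1.73% in middle and 1.85% and 1.78% in old grey matter (exact permutation p = 0.0667). Mbp made up 55.1% to 58.8% of the sum in white matter and 61.3% to 63.4% in grey matter, and these ranges do not overlap.

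**Figure D5:**
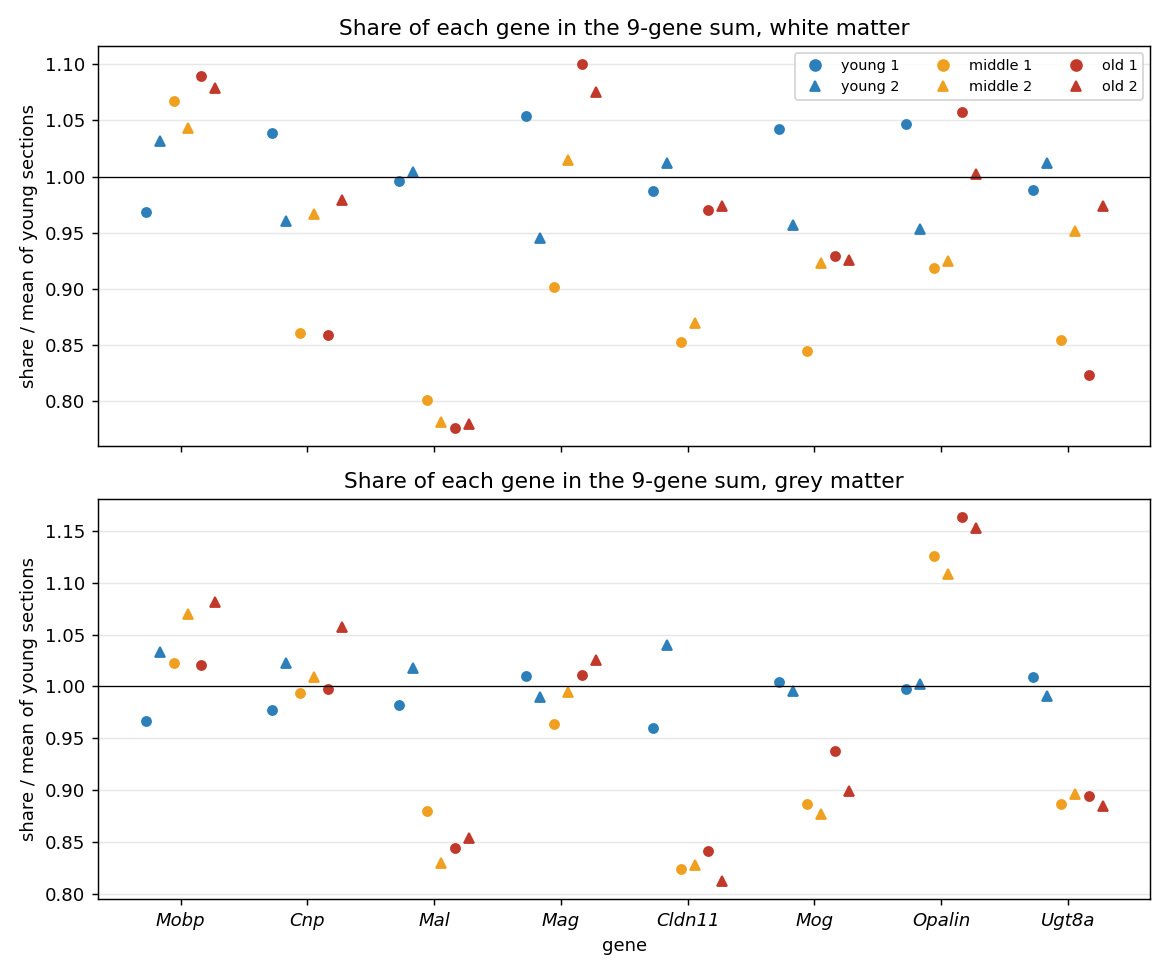
Share of each of 8 myelin genes in the 9-gene sum, divided by the mean of the 2 young sections (line at 1), in white matter (top) and grey matter (bottom), with 1 point per section. Mal lies below the line in the 4 middle and old sections of white matter (5.48% to 5.65% of the sum), and Opalin lies above it in those of grey matter (1.33% to 1.40%).

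The wider myelin programme was read from lists of names, also set with earlier results of these data known. Of 21 other genes of the myelin membrane, 6 fell and 0 rose in middle against young white matter, while 2 fell (Tspan2 and Lpar1) and 1 rose (Klk6) in old against young. Tspan2, a tetraspanin of the sheath, went from 760 ± 49.1 CPM in young to 527 ± 21.8 CPM in middle and 582 ± 23.2 CPM in old white matter (SD, n = 2 each). Klk6, a protease made by oligodendrocytes, went from 117 ± 18.7 CPM in young to 205 ± 41.7 CPM in old white matter (SD, n = 2; log2 fold change 0.75, edgeR adjusted p = 0.0220). Cd9, another tetraspanin, was lowest in middle sections: it fell against young (log2 fold change -0.43, edgeR adjusted p = 0.0160) and rose from middle to old (0.58, edgeR adjusted p = 0.00653). In grey matter 0 of the 21 were called.

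Of 10 enzymes of myelin lipid and energy metabolism tested, 5 fell in middle and 4 in old against young white matter, and 0 rose. Hmgcs1 and Fdps, enzymes of cholesterol synthesis, fell by 0.75 and 0.68 on the log2 scale in middle and by 0.48 and 0.45 in old against young (edgeR adjusted p = 0.000452, 0.00163, 0.0151 and 0.0328). Gamt, which makes creatine, fell by 0.71 in middle and by 0.53 in old against young (edgeR adjusted p = 0.000388 and 0.00329). Of 10 genes of oligodendrocyte precursors and newly committed cells, 3 fell in middle and 2 in old against young. Gpr17, a receptor of committed precursors, was 67.3 ± 24.5 CPM in young, 23.7 ± 3.26 CPM in middle and 30.2 ± 1.58 CPM in old white matter (SD, n = 2 each). The 7 oligodendrocyte transcription factors had 0 called in white matter, while in isocortex Nkx6-2 rose in old against young (log2 fold change 0.79, edgeR adjusted p = 0.00517), as did Anln of the myelin membrane list (0.52, edgeR adjusted p = 0.0414). In middle isocortex Aspa, an enzyme that breaks down N-acetylaspartate in oligodendrocytes, rose as well (0.50, edgeR adjusted p = 0.0184).

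Over 60 sums, 10 regions in 6 sections, genes whose log2(CPM + 1) followed the summed myelin genes closely included Ermn (Pearson r = 0.996), Gatm (0.993), Plekhh1 (0.993) and Tmem88b (0.993), among 9823 genes with a mean of at least 10 CPM. Gatm and Tmem88b are among the markers that named white matter. The sums share libraries and are dominated by the contrast of white with other regions, so r is a description. Of the 9 genes Cldn11 followed the sum least closely (0.971), next Opalin (0.981).

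The promoters of Mobp, Opalin and Mal are shown because both young sections lay above the 4 others in the share of Mal in white matter and below them in the share of Opalin in grey matter and of Mobp in white matter. RefSeq (GRCm38.p6) start sites were used for 8 of the 9 genes, and the stretch from 250 to 51 bases before the start was searched on both strands for CTTTGT, the core letters bound by SOX proteins such as the oligodendrocyte factor SOX10, and for CTGGCAC, letters of the motif of the myelin factor MYRF. Matches are in capitals, and a match on the other strand reads ACAAAG. Mobp is on the plus strand at chr9:120149492-120149691, Opalin on the minus strand at chr19:41077164-41077363 and Mal on the minus strand at chr2:127656746-127656945, and each is written 5′ to 3′ along the gene.
Mobp: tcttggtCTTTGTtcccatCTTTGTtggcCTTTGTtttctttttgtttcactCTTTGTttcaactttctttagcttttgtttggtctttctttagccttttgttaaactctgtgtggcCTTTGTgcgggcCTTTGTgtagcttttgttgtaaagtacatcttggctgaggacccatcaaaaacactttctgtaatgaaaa
Opalin: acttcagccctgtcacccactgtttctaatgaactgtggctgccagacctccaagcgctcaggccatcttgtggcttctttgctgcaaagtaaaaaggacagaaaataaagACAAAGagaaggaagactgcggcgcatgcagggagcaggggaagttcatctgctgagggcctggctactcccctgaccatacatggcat
Mal: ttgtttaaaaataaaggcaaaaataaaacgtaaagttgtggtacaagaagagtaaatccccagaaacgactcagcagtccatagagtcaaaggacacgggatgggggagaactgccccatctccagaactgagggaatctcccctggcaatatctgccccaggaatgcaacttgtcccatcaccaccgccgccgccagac
The Mobp stretch held 6 copies of CTTTGT, while Opalin, Mag and Cnp held 1 and Mal, Mog, Cldn11 and Ugt8a held 0 in either orientation. Of 27025 promoters of the same length 13.6% held at least 1 copy, and 31 (0.115%) held 3 or more. Where RefSeq lists several starts, the first listed was used (Mag has 3). CTGGCAC stood once each before Mag and Cnp, and in 3.32% of all promoters. A match describes letters only and shows no binding, and binding was not measured here.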

How the data were processed

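Each of the 6 sections was deposited as a matrix of raw UMI counts per gene and spot. Per the file headers the counts were made with Space Ranger 1.3.1, while the submitters' processing notes list Space Ranger 3.1 and the build mm10. The 9 genes and all gene lists were chosen with earlier results of these data known. Of the spots, 2 with under 500 UMIs were removed. Of 3389 distinct spot barcodes 1920 occurred in all sections; these mark grid positions, not cells.

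Spots were scaled to 10000 UMIs and clustered with scanpy 1.11.5 and leidenalg 0.10.2 (2000 variable genes without the 9, 30 principal components, 20 neighbours, resolution 0.8). The other myelin and oligodendrocyte lists, apart from Tcf7l2, and the astrocyte, microglia and interferon lists were left out too. So were mitochondrially encoded and haemoglobin genes. Naming a cluster took 3 or more markers of a region in its top 50 genes, with 1 or more in the top 10, and 2 times as many as for any other region. This named 20 of 24 clusters and left 1922 spots in 4 clusters out of the regions. Doublets were not sought, since a spot can hold several cells.

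Counts were summed per section and region and tested with edgeR 4.0.16 (R 4.3.3; robust quasi-likelihood, TMM, filterByExpr, all 3 ages in 1 fit, 3 residual degrees of freedom), at a Benjamini-Hochberg adjusted p of 0.05. Shares were tested with exact two-sided permutation (scipy 1.17.1). DESeq2 1.42.0 and limma 3.58.1 were alternatives. The edgeR test gives no standard error, so each SE is the absolute log2 fold change divided by the square root of its F statistic. The edgeR step was tested on simulated data. Young, middle and old replicate sections differed by more than counting error (chi-square over its degrees of freedom 45.6, 32.6 and 24.0). With 2 males per age, p-values measure the spread between these sections only.

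All 9 genes are named with their values. Of other lists, up to 3 called genes per direction with the largest fold change and a mean of at least 10 CPM were eligible. Genes of like pattern come from the 5 with the highest correlation. Items that the rule would also name are not reported here. The restrictions to slide 1 and to white matter spots with fewer neuron marker UMIs were chosen after seeing the data.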

Additional observations from a re-analysis of the deposited data

Results flagged for a closer look

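For some of the 9 genes the change with age differed between white and grey matter of the same sections by a test of the difference itself. In middle against young the change in white minus the change in grey matter, on the log2 scale, was -0.63 for Opalin, -0.49 for Cnp, -0.47 for Mal, -0.39 for Mag, -0.36 for Mog and -0.34 for Ugt8a. In old against young it was -0.40 for Cnp. Of the 12 markers that named white matter, 10 had a lower change in white than in grey matter in middle against young. Neuron marker levels in white matter were also higher in the middle sections, and in white matter spots with fewer neuron marker UMIs none of the 6 middle against young differences passed, where 14 of 10575 genes were called in all. There they were -0.54 for Opalin, -0.36 for Cnp, -0.34 for Mal, -0.26 for Mag, -0.23 for Mog and -0.19 for Ugt8a.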

How the results depend on the processing

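Counts of called genes among the 9 were 0 in whole sections and in grey matter under every alternative run. Calls over all genes moved with the alternatives too. With slide as a block, 149 of 12530 genes were called in old and 175 in middle against young white matter, against 292 and 423 without it. Without a filter on low counts, 366 of 21917 genes were called in old and 285 in middle against young isocortex, against 42 and 36 of 15442 with it. In white matter, old against young, the 2 calls became 1 with DESeq2, with slide as a block and when thinned to the smallest total, 4 without a filter on low counts and with white matter taken as the 10% of spots highest in its markers, and 0 on slide 1 alone. Leaving out 1 section gave 0 to 2. In middle against young the 7 calls became 4 with slide as a block, 1 in spots with fewer neuron marker UMIs and 0 on slide 1 alone, and 0 to 7 with 1 section left out. In single regions outside white matter, the 1 call in old against young became 14 without a filter and 0 with at least 10 counts in every section, with slide as a block or with clustering without the white matter markers. The 1 call in middle against young became 14 without a filter and 0 with DESeq2, slide as a block, resolution 1.2 or clustering without the white matter markers. It also became 0 with the 9 genes and the other myelin and oligodendrocyte lists kept in for clustering. Leaving out 1 section, which leaves 1 section at an age, also moved both counts.

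For the difference between white and grey matter, the 1 call in old against young became 0 with limma and on slide 1 alone, 2 with unnamed clusters added to grey matter, and 3 with white matter as 10% of spots or in spots with fewer neuron marker UMIs, and 0 to 4 with 1 section left out. In middle against young the 6 calls became 0 with limma, on slide 1 alone and in spots with fewer neuron marker UMIs, 3 with clustering without the white matter markers, and 2 to 8 with 1 section left out. In old against middle the count of 0 became 1, Cldn11, with white matter as 10% of spots. The number of genes whose share in the white matter sum reached the smallest p went from 5 to 3 at resolution 1.2, without the white matter markers or with 10% of spots, to 2 in spots with fewer neuron marker UMIs and to 0 to 4 with 1 section left out. The white matter share of the 9 genes' UMIs, old minus young, was -0.629 percentage points and turned to 2.07 with 10% of spots, 1.77 without young 2 and 0.113 without old 1 (-3.03 to 1.77 over single sections left out). The cause of these shifts was not tested.

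Sections share replicate numbers across ages, and same-numbered middle and old sections also share a slide. Deviations of same-numbered sections correlated at 0.0819, 0.319 and 0.461 in whole sections, for young with middle, young with old and middle with old. In white matter they correlated at 0.0171, 0.0106 and 0.115 in that order. The numbers were not taken to pair the sections, a choice that the whole-section values do not settle. With the replicate number as a block, 2 genes in old and 6 in middle against young were called in white matter and 0 in single regions in both, and all genes called in white matter numbered 310 and 468.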

Other observations

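Of 12 interferon response genes, 2 rose and 0 fell in old against young white matter, Bst2, a surface protein that tethers viruses (log2 fold change 0.85, edgeR adjusted p = 0.0296), and H2-K1, an antigen-presenting class I chain (0.60, edgeR adjusted p = 0.00275). In the sum of grey matter regions 0 of the 12 were called, but Ifi27 of the same list rose in isocortex, in old (0.44, edgeR adjusted p = 0.00517) and in middle against young (0.45, edgeR adjusted p = 0.00545), and in whole sections in old against young (0.51, edgeR adjusted p = 0.0213).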
